A study of Homo sapiens with 2 samples.

Results

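Exons that lie between 2 short introns were examined in amiloride-treated HEK293T, a cell line of human embryonic kidney origin. An exon belonged to this set when it was 51 to 300 bases long and the introns on both sides of it, as the skipped-exon event draws them, were under 250 bases. The rule used these lengths and no measured value. Of 113456 skipped-exon events in the comparison, 2275 met it. They held 2238 distinct exons of 67154, in 1272 genes of 11965. The median exon was 111 bases long, with an upstream intron of 123 and a downstream intron of 126 bases. Both introns and the exon together spanned a median of 392 bases (range 201 to 689). A flanking intron, as the event draws it, can hold another exon, and such cases were kept.

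RNA-seq of polyadenylated RNA gave 1 library of control cells, which received no drug, and 1 library of cells kept for 6 h in medium with 300 µg/mL of amiloride, a diuretic that blocks epithelial sodium channels. The comparison asks which exons are included differently when the drug is present. The authors ran rMATS, which weighs reads that include an exon against reads that skip it, and deposited for each event a p-value, a false discovery rate (FDR) and an inclusion level difference. The difference lies between -1 and 1 and is taken as library number 1 minus library number 2. The table does not name the condition of either number, so a positive difference cannot be assigned to the control or to amiloride. There is no replicate of either condition, and an event is named called here when its FDR was under 0.1. A call compares these 2 libraries and not the conditions. The depth per library is not given here. No expression level was used, and the cell line was not checked against marker genes.

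An intron is removed after the U1 snRNP binds its 5' splice site (5'SS) and U2 with its partner U2AF binds the branch point and the pyrimidine tract ahead of the 3' splice site (3'SS). Where introns are short, both ends can be recognised together across the intron, whereas exons between long introns are thought to be recognised across the exon. Short introns of human genes are known to be rich in G and C and in runs of G, which can act as splicing enhancers inside introns.

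The layout is shown by 4 called exons with a short stretch between their neighbours and a difference of at least 0.1, 1 per gene. Each line holds the upstream intron, the exon and the downstream intron from 5' to 3' on GRCh37, and the capitals mark the exon.
GTF2F1, chr19:6381490-6381707, minus strand: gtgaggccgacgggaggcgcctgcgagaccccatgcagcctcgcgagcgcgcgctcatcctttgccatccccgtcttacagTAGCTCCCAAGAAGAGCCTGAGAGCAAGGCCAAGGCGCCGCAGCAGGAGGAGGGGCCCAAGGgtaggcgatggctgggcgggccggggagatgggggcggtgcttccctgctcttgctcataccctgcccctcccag
JMJD8, chr16:733088-733321, minus strand: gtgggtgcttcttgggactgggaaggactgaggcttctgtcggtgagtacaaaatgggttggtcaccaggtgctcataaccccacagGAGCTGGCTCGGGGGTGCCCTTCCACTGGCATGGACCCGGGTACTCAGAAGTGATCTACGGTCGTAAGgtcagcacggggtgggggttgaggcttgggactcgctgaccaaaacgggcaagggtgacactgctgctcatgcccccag
KIF22, chr16:29816348-29816583, plus strand: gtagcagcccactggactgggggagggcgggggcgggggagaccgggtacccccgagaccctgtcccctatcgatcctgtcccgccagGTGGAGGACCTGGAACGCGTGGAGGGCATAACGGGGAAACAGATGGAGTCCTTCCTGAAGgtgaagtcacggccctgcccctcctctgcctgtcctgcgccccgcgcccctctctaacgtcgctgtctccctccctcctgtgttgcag
KMT2B, chr19:36221364-36221607, plus strand: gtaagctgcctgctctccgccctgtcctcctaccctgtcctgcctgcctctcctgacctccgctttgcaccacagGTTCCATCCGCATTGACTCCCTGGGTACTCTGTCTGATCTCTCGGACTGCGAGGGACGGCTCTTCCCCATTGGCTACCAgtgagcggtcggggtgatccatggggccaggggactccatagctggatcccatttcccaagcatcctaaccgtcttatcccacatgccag

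In GTF2F1, which encodes the large subunit of the general transcription factor TFIIF, a 62-base exon sat between introns of 81 and 75 bases, and the whole stretch was 218 bases with 68.8% G or C. Its inclusion level difference was 0.219 with an FDR listed as 0. The exon of JMJD8, a protein with a JmjC domain, had 68 bases and a difference of 0.110. In KIF22, a kinesin that binds chromosome arms in mitosis, 2 introns of 88 bases each flanked a 60-base exon with a difference of 0.259. KMT2B, a methyltransferase for lysine 4 of histone H3, had a 79-base exon (exon 25 of 37) with a difference of 0.114. The 4 differences were all positive, as they were for 558 of the 585 called exons of the set. The pairs of introns in these stretches held between 6 and 12 positions at which GGG begins.

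Exons between 2 short introns were called about as often as skipped-exon events at large, but their differences were smaller. Of the 2275 events, 593 were called, or 26.1% (95% Wilson interval 24.3 to 27.9%, counting error only). Over all 113456 events the share was 27.5%, which lies inside that interval. Positive differences made up 565 of the 593 calls (24.84% of events, against 26.4% of all events) and negative differences 28 (1.23%, against 1.1%). The median size of a called difference was 0.067 in the set and 0.108 over all called events. A difference of at least 0.1 was reached by 36.8% of the calls (33.0 to 40.7%), against 52.8% of all calls. As a share of events, 9.58% were both called and at least 0.1 in size, against 14.5% of all events. Exons share genes and are not replicates, so no test was made between classes of exons.

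Called differences were also smaller in the set than in each of 4 other classes of flanking introns. Among exons of 51 to 300 bases, the median size was 0.086 where the upstream intron was the short one and 0.088 where the downstream intron was. It was 0.110 where neither intron was under 250 bases, and 0.131 where both had at least 5000 bases. The share of calls of at least 0.1 was 45.4%, 45.2%, 53.4% and 60.04% in these 4 classes. The shares of events called were 29.7% with a short upstream intron, 27.2% with a short downstream intron, 27.2% with neither and 23.1% between 2 introns of at least 5000 bases. A p-value of exactly 1 was listed for 37.7% of the events in the set, against 27.7% of all events. Reads per event were not used.

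**Figure D1:**
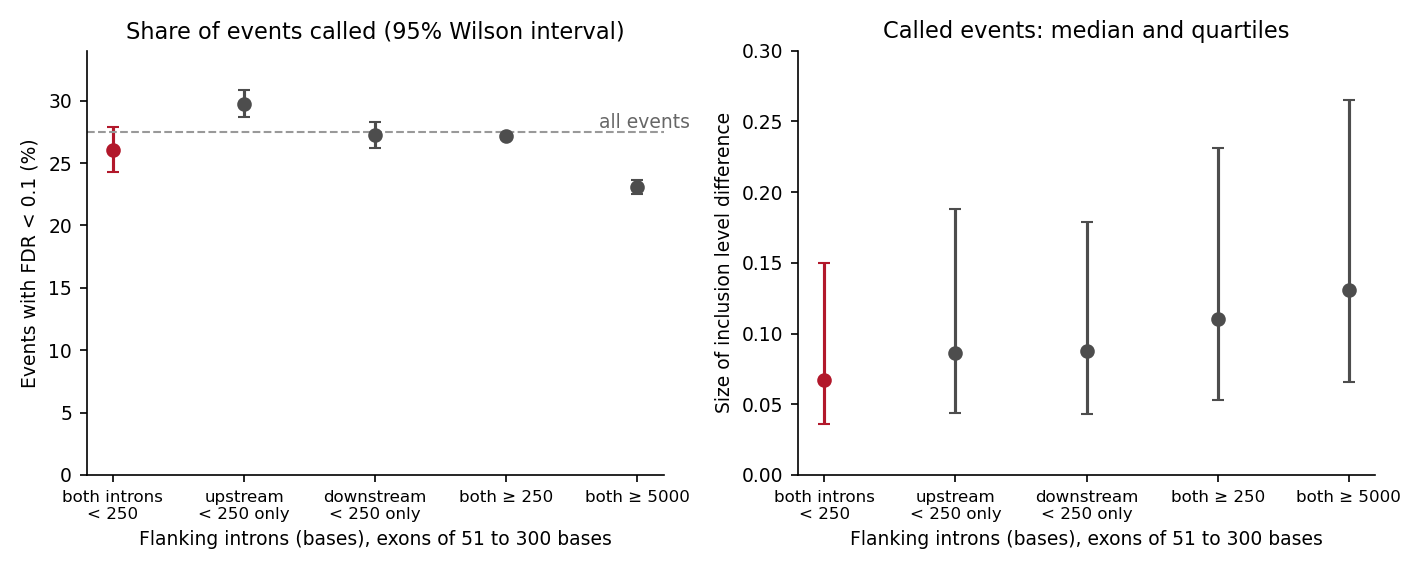
Left, share of skipped-exon events with an FDR under 0.1 (percent, with 95% Wilson intervals) for exons of 51 to 300 bases grouped by flanking introns; the dashed line is the share over all events. Right, median size of the inclusion level difference among called events, with the lower and upper quartile. The set (red) sits at 26.1% called, within reach of the line at 27.5%, and has the lowest median size, 0.067.

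**Figure D2:**
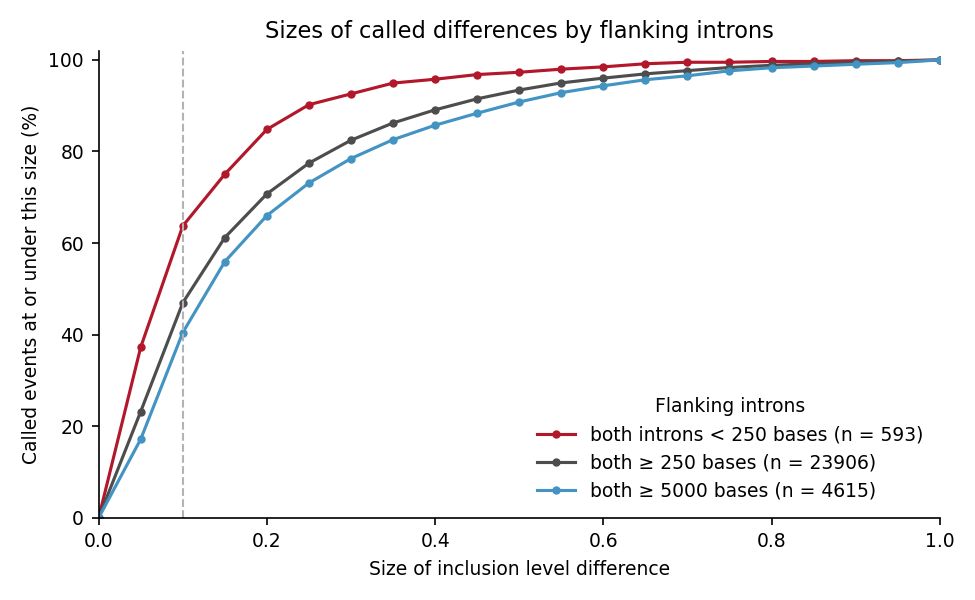
Cumulative share (percent) of called events at or under a given size of inclusion level difference, for exons of 51 to 300 bases between 2 introns under 250 bases (593 events), at least 250 bases (23906) and at least 5000 bases (4615). The dashed line marks 0.1, which 63.7% of the called events of the set do not exceed, against 47.0% and 40.5% in the other classes.

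An exon that enters several events has several chances to be called. At the level of distinct exons, taking the event of the set with the lowest p, 585 of 2238 were called (26.1%). Over all distinct exons the share was 35.8%, but there the lowest p was taken over every event of an exon. Events with a longer flanking intron, which 802 exons of the set also had, were thus left out for the set alone. The shares are therefore not counted alike and cannot be compared directly. Only 33 exons of the set entered more than 1 of its events. Among exons with exactly 1 event in the whole table, 353 of 1414 in the set were called (24.96%), against 25.3% of all such exons. Their called differences had a median size of 0.079, against 0.117 for all exons with 1 event.

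The same exon can be drawn with a different neighbour in another event. In 802 exons of the set there were also events with a longer flanking intron, 1336 in all. Of these, 31.0% were called and the median called size was 0.1035. For the 508 exons with exactly 1 event of each kind, 27.0% of the events with short introns and 29.7% of the events with a longer intron were called. The calls coincided in 68 exons, fell on the short-intron event alone in 69 and on the other event alone in 83. In the 68 exons called in both, the sign agreed in 66. The difference was larger in the event with the longer intron in 49 of them, smaller in 17 and equal in 2, with medians of 0.142 and 0.0725 in size. The 2 events of an exon share the reads on its body, and 95.3% of calls in the set were positive. The agreement in sign is thus not independent support.

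Exon length, intron length and annotation divided the set further. These divisions were made after the tables had been seen. Only the split by annotated skip, below, was also made over all events. Whether those by exon length and by frame hold beyond the set was not tested. Exons of 51 to 80 bases had 130 calls in 470 events (27.7%), and all 130 were positive. Exons of 151 to 300 bases had 86 calls in 490 events (17.6%, interval 14.4 to 21.2%), of which 81.4% were positive. Where the longer of the 2 introns was under 100 bases, 24.5% of 335 events were called and 81 of 82 calls were positive. Where it had 200 to 249 bases, 28.1% of 775 events were called and 200 of 218 calls were positive. On either side of the limit, 29.3% of 174 events with the longer intron at 240 to 249 bases were called (23.05 to 36.5%). At 250 to 259 bases 22.1% of 145 events were called (16.1 to 29.5%), so the intervals overlap. The median called size was 0.055 inside (51 calls) and 0.0995 outside the limit (32 calls). The quartiles, 0.034 to 0.1205 inside and 0.052 to 0.1695 outside, overlap as well.

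The skipping junction is present in GENCODE for 481 of the 2275 events. Of these, 37.01% were called (32.8 to 41.4%), against 23.1% (21.2 to 25.1%) of the 1794 events whose skipping junction is not annotated. Over all events in the table the shares were 39.25% and 24.98%. Negative differences were 20 of the 178 calls with an annotated skip and 8 of the 415 calls without. Over all events they were 798 of 7994 and 453 of 23253 calls, so this split was not particular to the set. Exons whose length is a multiple of 3, which keep the reading frame when skipped, were called in 23.1% of 880 events, and the others in 27.96% of 1395. Nearly all exons of the set (98.1%) overlap coding sequence.

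Next come the 8 genes with the lowest p among called exons with a difference of at least 0.1. For 71 exons in 66 genes that p was listed as 0, and these were ordered by the size of the difference. Their splice sites are printed below, since they are what the spliceosome reads on these exons. Each 3'SS line has 20 bases of intron and 3 of exon, each 5'SS line 3 of exon and 6 of intron, and capitals mark exon bases.
PTBP2 3'SS, chr1:97278565-97278587, plus strand: ttcccattcaattttcctagTCC
PTBP2 5'SS, chr1:97278660-97278668, plus strand: TCAgtaagc
UBE2O 3'SS, chr17:74387892-74387914, minus strand: tggtgccctgtgtgtttcagGGG
UBE2O 5'SS, chr17:74387831-74387839, minus strand: AAGgtacag
LEMD3 3'SS, chr12:65639621-65639643, plus strand: tttcttttttaatatcacagGGT
LEMD3 5'SS, chr12:65639717-65639725, plus strand: ATGgtaaga
KMT2B 3'SS, chr19:36224478-36224500, plus strand: tctcgggctcgccctcccagGTT
KMT2B 5'SS, chr19:36224585-36224593, plus strand: TGGgtgagt
VPS11 3'SS, chr11:118949255-118949277, plus strand: ctgccctccttcctctccagGTC
VPS11 5'SS, chr11:118949412-118949420, plus strand: GCTgtaaga
USP21 3'SS, chr1:161132385-161132407, plus strand: ccccactcccatcccaacagCCT
USP21 5'SS, chr1:161132514-161132522, plus strand: CAGgtggga
ZFYVE19 3'SS, chr15:41106121-41106143, plus strand: ttcctctctgatccctgaagGCC
ZFYVE19 5'SS, chr15:41106266-41106274, plus strand: CCGgtgggt
NT5C 3'SS, chr17:73127174-73127196, minus strand: caggtcttcatctgcaccagCCC
NT5C 5'SS, chr17:73127054-73127062, minus strand: AAGgtgggg

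The 8 differences lay between 0.514 and 0.674 and all were positive. The exon of PTBP2, the neural polypyrimidine tract binding protein that represses exons, had the highest, 0.674 (chr1:97278585-97278662, 78 bases, exon 13 of 14). Its skipping is annotated. The exon of KMT2B that belongs to this group is a second one in that gene, exon 29 of 37 (chr19:36224498-36224587, 90 bases), with 0.625. It too keeps the frame and has an annotated skip.

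In contrast, skipping of the exons of UBE2O, LEMD3, VPS11, USP21 and ZFYVE19 shifts the frame and is not annotated. UBE2O, a ubiquitin-conjugating enzyme, differed by 0.644 at a 58-base exon (chr17:74387837-74387894, exon 17 of 18). LEMD3, an inner nuclear membrane protein that restrains SMAD signalling, differed by 0.642 at a 79-base exon (chr12:65639641-65639719, exon 12 of 13). For VPS11, a core subunit of the tethering complexes of late endosomes and vacuoles, the value was 0.611 at 140 bases (chr11:118949275-118949414, exon 13 of 17). USP21, a deubiquitinase, had 0.584 at 112 bases (chr1:161132405-161132516, exon 6 of 14). ZFYVE19, which takes part in the abscission checkpoint, had 0.543 at 128 bases (chr15:41106141-41106268, exon 10 of 11). The last of the 8, NT5C, a cytosolic deoxyribonucleotidase, had 0.514 at a 117-base exon (chr17:73127060-73127176) that keeps the frame and is not an exon of the canonical transcript.

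All 8 exons overlap coding sequence. At the 5'SS, the third base of the intron was A in 4 of them and G in 4, the fifth was G in 7, and the last exon base was G in 6. Scores of the 5'SS, the summed log2 ratio of each base's frequency at annotated sites to equal frequencies, ran from 4.01 for PTBP2 to 9.01 for LEMD3. For the 3'SS the lowest score was 3.73 in NT5C and the highest 13.0 in VPS11. Of the 18 bases ahead of AG, 12 to 17 were pyrimidines. The 8 sites thus spanned weak and strong splice sites on both sides.

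Among exons with an FDR under 0.01, the largest positive difference belonged to FAM214B (ATOSB in GENCODE), 0.861 at a 69-base exon (chr9:35105938-35106006, exon 7 of 9, FDR 2.99e-09). The next in size were PTBP2, UBE2O, LEMD3 and KMT2B, given above. Only 14 of the 428 exons with an FDR under 0.01 had a negative difference. The largest were -0.526 in GLB1L, a gene related to beta-galactosidase (175 bases, FDR 0.0082), and -0.295 in NUDT17, a member of the Nudix hydrolase family (184 bases, FDR 0.00248). ATXN2L, the paralog of ataxin 2, had -0.204 at 165 bases (FDR 0.00416). The readthrough gene ABHD14A-ACY1 had -0.162 at 145 bases (FDR 3.37e-04), and its reads cannot be told apart from those of the genes it joins. SAT2, an acetyltransferase, had -0.110 at the shortest of these 5 exons (FDR 1.21e-06). The skip is annotated for all 5 exons, and each was longer than 100 bases.

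With 1 symbol per exon, which leaves 1271 genes because 1 exon carried a pair of symbols, 767 held 1 such exon, 261 held 2 and 243 held 3 or more. Of the 504 genes with at least 2, none was called in 241, some were called in 241, and every one was called in 22. In 285 pairs of neighbouring exons that share a short intron, 24.0% of the exons were called, and both exons of a pair in 17 pairs (5.96%). Both differences were positive in 16 of these and opposite in 1. In 103 pairs 1 of the 2 exons was called, and in 165 neither.

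FASN, the fatty acid synthase, had the most exons of this kind, 14. Of these, 4 were called, with differences of 0.012 to 0.069, and the other 10 ran from -0.001 to 0.006. The highest, 0.069, was at exon 6 of 43. KMT2D, another methyltransferase for lysine 4 of histone H3, had 6 of 10 called, 5 positive and 1 negative. These ran from -0.064 at exon 29 of 55, with 242 bases the longest of the 10, to 0.182 at exon 5. LAMA5, the laminin alpha 5 chain, had 1 of 9 called, exon 66 of 80, with 0.095. CPSF1, which takes part in cleavage and polyadenylation, had 2 of 8, with 0.070 and 0.026. None of 8 was called in NBEAL2, a protein of platelet granules, where all differences lay between -0.026 and 0.068. None of 8 was called in COL7A1, the collagen of anchoring fibrils, although its differences ran from -0.685 to 0.536. A large difference without a low FDR thus occurred in this gene. In all, 4 genes had 8 exons, and PRRC2A was left out of the 6 described by alphabetical order. Outside the set, 0 of 17 exons were called in FASN, 2 of 10 in KMT2D and 1 of 11 in LAMA5. For CPSF1, NBEAL2 and COL7A1 the counts outside the set were 0 of 10, 0 of 12 and 0 of 9.

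The set was also described through 14 lists of genes by function, 703 genes in all, which held 303 of its exons in 150 genes. Of these, 78 were called (25.7%), close to the 26.1% of the set. The share over all exons of a list's genes takes the lowest p of any event of an exon and stands beside the 35.8% of all distinct exons. For exons of the set only their events in the set were used, so these shares are not counted alike. In lists of chromatin, translation and transport the counts were as follows. Enzymes and complexes of histone acetylation and methylation had 17 of 39 exons called (43.6%, interval 29.3 to 59.0%), 16 positive and 1 negative, in 9 genes. KDM6B, a demethylase for lysine 27 of histone H3, had 0.398, and the deacetylase HDAC3 had 0.067. Since KMT2B and KMT2D hold several of the 39 exons, these are not independent. The share over all exons of these genes was 41.9%. Aminoacyl-tRNA synthetases had 11 of 26 called (42.3%, interval 25.5 to 61.05%), all positive, against 38.9% of all exons in these genes, with 0.307 in VARS2, 0.138 in TARS2 and 0.049 in HARS. Coat and adaptor proteins of vesicles had 9 of 27, all positive (33.3%, against 37.1% of all their exons). Beside VPS11 these included VPS52, of a complex that tethers vesicles at the Golgi, with 0.168, and SEC16A, which organises exit sites of the endoplasmic reticulum, with 0.067.

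Of vacuolar ATPase and lysosomal enzymes, 5 of 14 were called, all positive (35.7%, against 40.4% of all their exons), with 0.274 in ARSA (arylsulfatase A), 0.062 in ATP6V0B (a proton pump subunit) and 0.057 in TPP1 (a lysosomal peptidase). RNA polymerase II, Mediator and TFIID had 6 of 22, all positive (27.3%, against 38.3%). This list also held GTF2F1, which belongs to TFIIF, with 0.219. TAF15 had 0.1 and POLR2A, the largest subunit of the polymerase, had 0.080. Proteasome subunits had 6 of 25, all positive (24.0%, against 38.6%), with 0.196 in the ubiquitin receptor ADRM1, 0.074 in the ATPase PSMC5 and 0.034 in PSMD4. DNA replication genes had 3 of 12, against 34.6% of all their exons, with 0.147 in POLE (DNA polymerase epsilon), 0.084 in TIMELESS and 0.010 in TOP2A. Of all calls in the set, 95.3% were positive.

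Splicing factors had 3 of 29 exons called (10.3%, interval 3.58 to 26.4%), against 33.8% of all exons in these genes, counted over any event. The called exons had 0.212 in PRPF40B, 0.097 in the kinase CLK2 and 0.013 in EFTUD2, a GTPase of the U5 snRNP. Collagens and laminins had 4 of 31 called (12.9%, interval 5.13 to 28.8%), against 13.7% of all their exons. COL11A2 had 0.567, AGRN (agrin, on the list as a further basement membrane protein) 0.188 and LAMA5 0.095. The actin cytoskeleton and its linkers had 5 of 24 (20.8%, against 31.6%), with 0.106 in MICALL1, 0.103 in ZYX (zyxin) and 0.054 in FLNA (filamin A). Tubulin, kinesin and dynein had 3 of 19 (15.8%, against 34.4%), with 0.259 in KIF22, 0.227 in KIFC2 and 0.155 in KIF23, a motor of the central spindle. Translation initiation factors had 4 of 18 (22.2%, against 39.4%), none above 0.023, in EIF4G2, EIF4A2 and EIF2B4. The respiratory chain and TCA cycle had 2 of 11 (18.2%, against 33.1%), both in IDH3B, the higher at 0.030. Glycolysis and the pentose phosphate pathway had none of 6, against 26.5% of all their exons, where the upper limit of the interval is 39.0%. With 6 to 39 exons a list, most of these intervals overlap each other and the share of the set.

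Lengths alone defined the set, and its sequences differed from those of other exons in several ways. The mean score of the 3'SS was 7.01 ± 3.14 (SD, n = 2238), against 9.24 ± 3.39 (SD, n = 51550) where neither intron was short and 10.3 ± 3.27 (SD, n = 11800) between introns of at least 5000 bases. For the 5'SS the scores were 7.20 ± 2.83, 7.79 ± 2.79 and 8.19 ± 2.67. With only the upstream or only the downstream intron short, the 3'SS means were 7.845 and 7.98. The 5'SS means in these classes were 7.48 and 7.30. The difference from other exons of 51 to 300 bases was -2.08 at the 3'SS and -0.54 at the 5'SS, both smaller than the SD between exons.

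The letters show what the scores sum up. In the 18 bases ahead of AG the share of pyrimidines was 74.4% in the set and 75.3% where neither intron was short. Within it T had 30.8% and C 43.6% in the set, whereas T had 47.9% and C 27.4% in the other class. The tract thus held C in place of T. At the 5'SS the third intron base was G in 59.9% of the set and A in 32.6%, whereas it was G in 28.9% and A in 64.8% where neither intron was short. It was G in 44.8% with only the upstream intron short and in 46.5% with only the downstream intron short. The last exon base was G in 81.5% and 78.5%, and the fifth intron base was G in 81.96% and 75.03%.

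Base composition differed in the same direction over the whole stretch. The GC content was 58.8% ± 8.07 (SD, n = 2238) in exons of the set, against 48.5% ± 9.41 (SD, n = 51550) where neither intron was short. In the introns as the events draw them it was 59.6% ± 11.4 (SD, n = 4129) against 44.1% ± 8.55 (SD, n = 94049). The triplet GGG was present between intron bases 7 and 56, counted from the 5'SS on the transcript's strand, in 80.2% of 3740 introns of at least 80 bases, against 47.8% of 94049. With only the upstream or only the downstream intron short, intron GC content was 50.8% and 51.6%. GGG was present there in 63.8% and 66.0%. Chromosomes 16, 17 and 19 held 29.6% of the exons of the set and 16.1% of all distinct exons. FASN, JMJD8, KIF22, GTF2F1 and KMT2B lie there.

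Within the set these features separated called from other exons less. Called exons had a mean 5'SS score of 6.96 ± 2.81 (SD, n = 585) and the rest 7.28 ± 2.84 (SD, n = 1653). G was the last exon base in 76.6% of called exons and 83.2% of the others. The exons of the set alone were split into 4 bins of about equal number. In the bin with the lowest 5'SS scores 31.4% of exons were called (27.7 to 35.4%), and in the bin with the highest 21.8% (18.6 to 25.4%), with 22.95% and 28.4% in between. The 3'SS scores were 6.91 ± 3.31 and 7.04 ± 3.08, and 27.1% of exons were called in both the lowest and the highest bin. Introns of called and other exons held GGG in 80.73% and 79.99% of windows.

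The introns beside these exons gave a second readout, in the table of retained introns. Of 4157 such introns, 44 in 36 genes (1.06%) were listed there. A call was made for 25 of the 44 (56.8%, interval 42.2 to 70.3%), against 48.2% of all 677 retained intron events. In contrast to the exons, most calls were negative. There were 19 negative and 6 positive calls, which is 43.2% and 13.6% of the 44, against 31.5% and 16.7% of all events. The median called difference was -0.058. Of the 258 other retained introns under 250 bases, 44.6% were called, 82 of them negative and 33 positive. Their median called difference was -0.08, so mostly negative calls were common to short retained introns.

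In 10 genes an FDR of 0 was listed, and the 6 of them with the largest differences are given. An intron of TAF1C, a subunit of the selectivity factor of RNA polymerase I, had -0.361 (chr16:84215070-84215197, 128 bases). An intron of ABHD11, a mitochondrial hydrolase, had -0.346 (chr7:73151722-73151891, 170 bases). Those of GTPBP3, a mitochondrial tRNA modifying enzyme, RANGRF, a regulator of Ran, and AUP1, a protein of lipid droplets, had -0.261, -0.169 and -0.135. HES4, a transcriptional repressor, had 0.106 (chr1:935168-935245, 78 bases). The exons that adjoin the 5 negative introns had differences between -0.066 and 0.006, and none was called. The exon that adjoins the HES4 intron was called with 0.112 (FDR 6.77e-10).

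The 44 introns and the exons they adjoin formed 51 pairs. The intron alone was called in 26 pairs, the exon alone in 5, both in 4 and neither in 16. Of the 4 pairs with both, 3 were positive on both sides, and in RUSC1 the intron had -0.088 and the exon 0.095. Both tables compare the same 2 libraries.

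**Figure D3:**
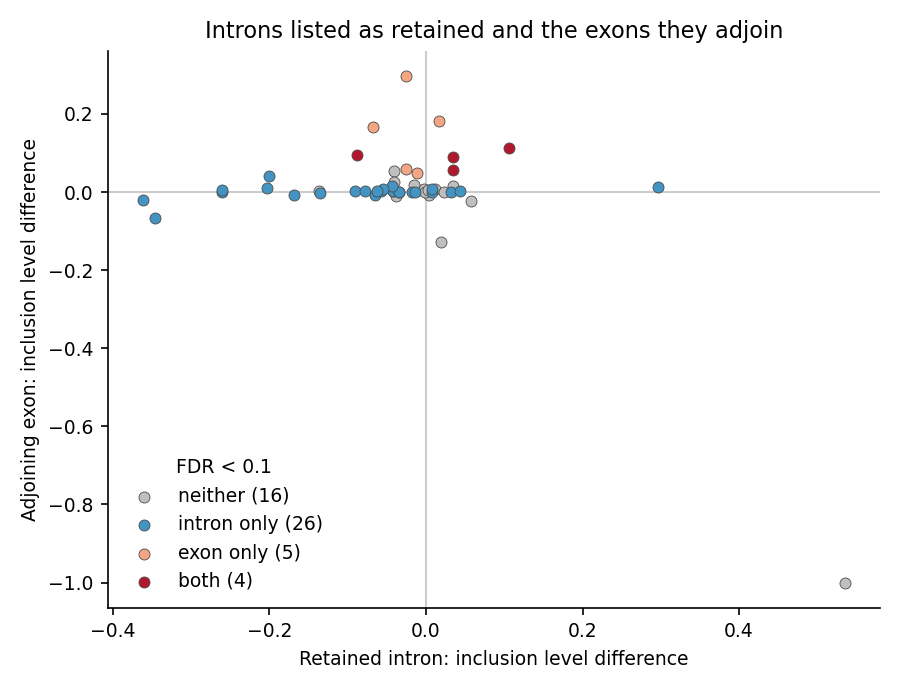
Inclusion level difference of each retained intron beside an exon of the set (x axis) against that of the exon it adjoins (y axis), for 51 pairs; both are the library number 1 minus library number 2, and colour gives which of the pair had an FDR under 0.1. The 26 pairs with only the intron called lie along the horizontal line, with exon differences near 0. The point at the lower right, in KCNK7, was called on neither side.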

How the data were processed

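Polyadenylated RNA of HEK293T cells was sequenced as 1 control and 1 amiloride library. The submitters' processing notes name STAR 2.5.1 and hg19 (GRCh37). The rMATS version is not given in the sources used here. The authors deposited 5 rMATS tables, of which the skipped-exon and retained intron tables were used. Their p-values and FDR were taken as deposited, and the inclusion level difference is the authors' own score between the numbered libraries. These are columns of the authors' comparison, used because no column names a condition. For that reason 30 columns of reads or levels per library were not used. In 100% of the set's events the effective length of the inclusion form equalled that of the skipping form (125 bases) plus the exon, so reads on exon bodies were counted.

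Events were classed by length, with introns oriented to the transcript. An exon in several events of the set was given the event with the lowest p. Shares carry 95% Wilson intervals. On GRCh37, 98.8% of the set's exons lie between AG and GT. Scores cover 9 bases (5'SS) or 23 (3'SS) against 299415 and 298794 annotated sites (GENCODE lifted to GRCh37, pseudocount 0.5). The scripts were checked on simulated data.

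The exons, gene lists and naming rule were chosen with earlier results of these data known. Named were 8 genes by lowest p (difference at least 0.1), the 5 largest differences in each direction (FDR under 0.01), the 6 genes with the most such exons, up to 3 genes per list, 6 retained introns by lowest p, ties by larger difference, and the 4 shortest stretches outside chromosome 8, where no sequence is shown. PRRC2A, RUSC1 and KCNK7 were named after their values were seen, and the comparisons of the same exon in 2 events, of neighbours, annotated skips, frame and bins were added then too. Alternatives were other FDR and size thresholds, other intron limits, distinct exons, exons with 1 event and AG/GT exons. Work was done in Python 3.11.15 with pandas 2.3.3, numpy 2.4.6, matplotlib 3.10.9 and scipy 1.17.1.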

Additional observations from a re-analysis of the deposited data

How the results depend on the processing

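The share of events called in the set, 26.1%, became 23.25% with an FDR under 0.05 and 19.03% under 0.01. It became 9.58% with a difference of at least 0.1, against 14.5% of all events, and 23.6% with introns under 150 bases. Shares and sizes over all events were not computed at the lower FDR thresholds or other intron limits. Whether the comparisons of the set with all events hold under them was not tested. The share of positive calls, 95.3%, became 96.8% with an FDR under 0.01 and 98.1% with introns under 150 bases. The median called difference, 0.065, became 0.080 with an FDR under 0.01, 0.1805 with a difference of at least 0.1 and 0.075 for exons with exactly 1 event. The retained introns called beside the set, 25, became 9 with a difference of at least 0.1, and 20 or 19 with the lower FDR thresholds. The differences in splice site score stayed between -0.56 and -0.48 (5'SS) and between -2.17 and -1.95 (3'SS) under each of the 4 alternatives tried for them. No paired analysis was possible because there is a single library on each side. For the same reason none could be left out. Depth per library was not given here, so how it limits each call was not tested. Intervals cover counting error only.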
